A study of Mus musculus with 24 samples.

Results

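Col1a1, Col1a2, Col3a1, Dcn, Lum, Acta2, Des, Lrat, Timp1 and Tgfb1 are genes of hepatic stellate cells and of the extracellular matrix that these cells deposit. They were taken by name: a gene entered through the array's probe sets whose only symbol in the platform annotation was one of these 10. They were 10 of the 18194 genes that had such a probe set, and 20 probe sets carried their symbols. Each gene was measured by its brightest probe set, and 13117 genes whose brightest probe set lay above the 40th percentile of all probe sets were tested. All 10 genes passed that filter.

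Stellate cells lie between the sinusoidal endothelium and the hepatocytes and store vitamin A as retinyl esters. In liver injury they can lose these stores, take on a contractile, myofibroblast-like form and lay down fibrillar collagen, a process driven mainly by transforming growth factor beta (TGF-beta). The balance between matrix proteases and their tissue inhibitors then sets how much of that matrix stays.

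RNA was taken from whole livers of 24 male BALB/c mice, with 1 mouse on each Affymetrix array and 6 mice in each of 4 groups. The groups were mice given 185 mg/kg streptozotocin (STZ, a beta cell toxin that makes mice diabetic) and fed the purified AIN93G diet (STZ), STZ mice fed that diet with 0.1% quercetin, STZ mice fed it with 0.5% quercetin, and mice that got no injection and ate the diet alone (control). Quercetin is a plant flavonol. The mice arrived at 6 weeks of age, STZ was injected 1 week later, and the diets began 1 week after that and lasted 14 days. Only STZ mice with a non-fasting glucose of 230 to 400 mg/dL were kept, and the controls received no vehicle. Cages held 3 mice, but no label says which mouse sat in which cage, so cage and group cannot be told apart.

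Correlations between arrays lay between 0.964 and 0.989, and no 2 arrays were identical. The mean deposited intensity per array ranged from 61.0 to 102.0, so intensities were quantile normalized, and tests used log2(intensity + 16), which understates the folds of dim genes. On the first principal component, 0.5% quercetin replicates 5 and 6 lay at -17.2 and -19.2, beside the controls (mean -15.4 ± 1.81, SD, n = 6) and apart from the rest of their group. As a measure of RNA quality, the log2 difference between the 3' and 5' Gapdh probe sets was -0.34 ± 0.10 in STZ mice, -0.32 ± 0.15 at 0.1% and -0.21 ± 0.17 at 0.5% quercetin, against -0.04 ± 0.17 in controls (SD, n = 6 each). Since it differed between groups, fitting it as a covariate can also take out part of a group difference. The same difference for beta-actin overlapped between all groups. It ran from 0.894 to 1.51 in STZ mice, 1.04 to 1.37 at 0.1% and 1.05 to 1.29 at 0.5% quercetin, against 0.969 to 1.56 in controls. The 15 stellate cell markers tested included Lrat, Des, Reln, Hand2, Cygb, Colec11 and Gfap. Gfap, an intermediate filament protein of quiescent stellate cells, had no more than 13.2 in any mouse. No detection calls came with the values, so no gene can be called present or absent, and in whole liver fewer cells of a type and less RNA per cell cannot be told apart.

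In STZ livers, the proteoglycan decorin rose 1.33-fold, and it was the only one of the 10 genes past the threshold (limma, Benjamini-Hochberg adjusted p under 0.05 over all 13117 genes). None was called lower. The fibrillar collagen genes Col1a1 and Col3a1, the actin gene of activated stellate cells Acta2, and the protease inhibitor gene Timp1 had differences of 0.17 or less in size on the log2 scale, none past the threshold. The share of 1 in 10 stands against 2.03% of all genes called higher and 1.69% called lower. On the values as deposited, 120 genes were called higher and 41 lower, against 266 and 222 after quantile normalization and 170 and 278 after scaling to the median. Leaving out STZ replicate 6 gave 146 and 100. Genes called lower numbered 147 when STZ replicate 2 was left out, 130 for STZ replicate 3, 114 for control replicate 3 and 131 for control replicate 4. The median log2 difference of the 10 genes was 0.14, with 7 of 10 above 0, against -0.02 over all genes, and it was 0.21 on the values as deposited and 0.13 after median scaling, where the medians of all genes were 0.06 and -0.03. The plot of each mouse's intensities shows the 10 genes in all 24 mice.

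**Figure D1:**
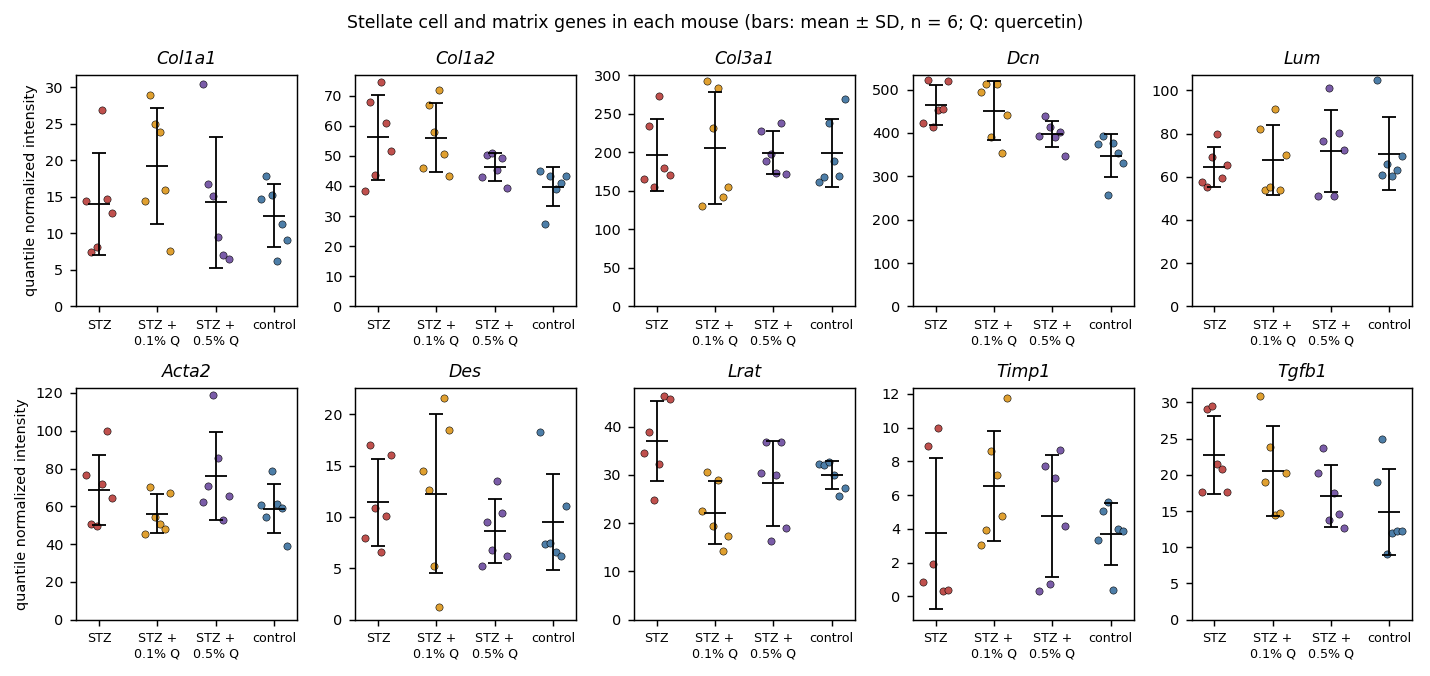
Quantile normalized intensity of each gene (vertical axis, a separate linear scale per gene) in every mouse of the 4 groups (horizontal axis), with black bars for the mean ± SD of 6 mice; Q is quercetin. For Dcn the 6 STZ mice, from 413, 454 and 521, sit above the 6 controls, which reach 393, and for no other gene do the STZ and control mice separate.

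The collagens come first. Col1a1 and Col1a2 encode the chains of type I collagen, the main fibrillar collagen of scar, and Col3a1 encodes type III collagen, which forms finer reticular fibres. In what follows the lowest, the median and the highest intensity of the 6 mice of a group are given in that order, and differences and folds are on the log2(intensity + 16) scale. Col1a1 had intensities of 7.46, 13.6 and 26.9 in STZ mice, 7.65, 19.9 and 28.9 at 0.1% quercetin and 6.43, 12.3 and 30.5 at 0.5% quercetin, against 6.25, 13.0 and 17.8 in controls. All 4 ranges overlapped, and the STZ and 0.5% quercetin groups each held 1 mouse well above the rest of its group. The STZ minus control difference was 0.07 (SE 0.17), with a 95% interval of -0.29 to 0.42 and an adjusted p of 0.896.

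Col1a2 had intensities of 38.2, 56.3 and 74.6 in STZ mice, 43.4, 54.2 and 71.9 at 0.1% and 39.3, 47.3 and 51.1 at 0.5% quercetin, against 27.4, 42.1 and 44.8 in controls. In STZ livers 4 of 6 mice lay above every control, while the other two fell inside the control range. The difference was 0.36 (SE 0.12), a fold of 1.28 with a 95% interval of 0.11 to 0.60 in log2 units, and its adjusted p of 0.0927 missed the threshold. Without STZ replicate 1, the lowest of its group, the difference was 0.43 and passed, with an adjusted p of 0.0335.

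Col3a1 had 155, 175 and 273 in STZ mice, 131, 193 and 293 at 0.1% and 171, 193 and 238 at 0.5% quercetin, against 162, 179 and 269 in controls. The groups overlapped over most of their range, and the 0.1% quercetin mice were the most scattered, with a coefficient of variation of 35.5% against 22.1% in controls. The difference between STZ and control was -0.02 (SE 0.17) with an adjusted p of 0.962, and it was 0.25 (SE 0.20, adjusted p = 0.802) with the Gapdh 3' minus 5' difference as a covariate. A 95% interval of -0.38 to 0.33 leaves room for a modest difference in either direction.

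Col1a2 and Col3a1 are the 2 members whose levels went together between mice of a group, and their promoters are shown for that reason. Each line gives the 250 bases before the gene start from RefSeq on GRCm38.p6, 5′ to 3′ on the plus strand, at chr6:4505368-4505617 for Col1a2 and chr1:45311288-45311537 for Col3a1. Capitals mark matches, on either strand, to the CCAAT box (CCAAT), the TATA box (TATAAA), the GC box (GGGCGG) and the CAGA element that Smad proteins bind (CAGAC).
Col1a2: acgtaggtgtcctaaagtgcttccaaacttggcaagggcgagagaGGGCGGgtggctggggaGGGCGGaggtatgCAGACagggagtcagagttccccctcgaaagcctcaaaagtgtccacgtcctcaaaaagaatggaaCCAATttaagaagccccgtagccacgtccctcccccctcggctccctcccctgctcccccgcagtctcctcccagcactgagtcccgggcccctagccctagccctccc
Col3a1: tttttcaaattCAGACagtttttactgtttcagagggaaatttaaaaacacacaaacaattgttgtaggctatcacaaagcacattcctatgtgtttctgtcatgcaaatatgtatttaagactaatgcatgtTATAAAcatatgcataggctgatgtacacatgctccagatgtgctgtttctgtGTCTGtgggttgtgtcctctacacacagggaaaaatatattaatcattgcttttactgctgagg
The Col1a2 window is 62.0% G and C and holds a CCAAT box 109 bases before the start, GC boxes 205 and 188 bases before it and a CAGA element 175 bases before it. The Col3a1 window is 35.2% G and C and holds a TATA box 117 bases before the start and CAGA elements 239 and 64 bases before it, and no marked match overlaps another in either window. The CAGA element is thus the only searched motif in both, and it stands in 42.2% of 32851 mouse promoters of that length, where the CCAAT box stands in 33.8%, the TATA box in 12.4% and the GC box in 32.7%. The AP-1 element (TGACTCA, in 4.46% of promoters) had no match in the windows of the 7 members with a listed promoter. The CArG box that serum response factor binds was searched only as the strict form CCWWWWWWGG, where W is A or T (in 1.47%). It had no match there either. Looser forms, such as ccctatatgg in the Acta2 window, were not searched, so the result does not speak to them. Besides these collagens, the members with a listed promoter are Acta2, Des, Lrat, Timp1 and Tgfb1. Col1a1, Dcn and Lum had none listed.

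The correlation of Col1a2 and Col3a1 was computed on each mouse's log2 deviation from its group mean. Pearson's r was 0.73 over 24 mice (permutation p = 0.00046, adjusted p = 0.0207 over the 45 pairs of the 10 genes), and Spearman's rho was 0.76 (permutation p = 0.00036, adjusted p = 0.0162). Without the 2 mice farthest from the median of Col1a2, STZ replicate 1 and control replicate 2, r was 0.77. Within groups of 6, r was 0.88 in STZ mice, 0.93 at 0.1% and 0.34 at 0.5% quercetin, and 0.38 in controls. Without 0.5% quercetin replicates 5 and 6, r was 0.73 and its adjusted permutation p 0.0562. It was the only one of 45 pairs past the threshold, 4 pairs had an unadjusted permutation p under 0.05, and the median r over the pairs was 0.08. Col1a1 had r = 0.45 with Col3a1 (permutation p = 0.0362, adjusted p = 0.423) and 0.34 with Col1a2 (permutation p = 0.122, adjusted p = 0.608).

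**Figure D2:**
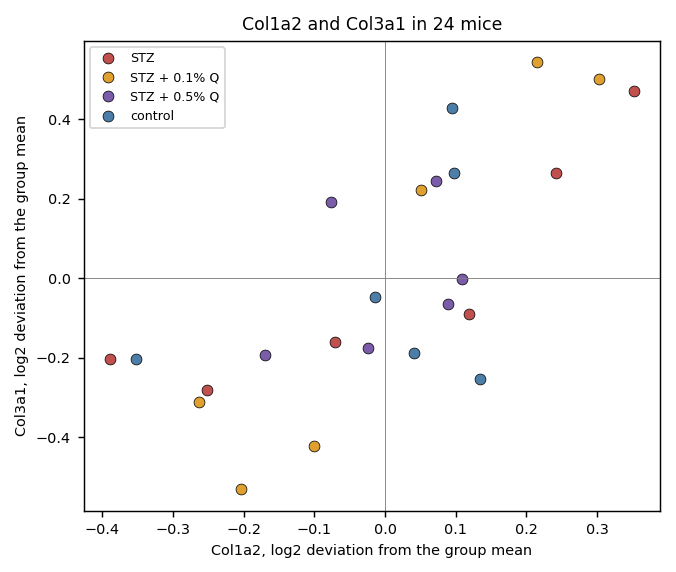
Log2 deviation of each mouse from its group mean for Col1a2 (horizontal) and Col3a1 (vertical), 1 point per mouse and 24 mice, coloured by group. Mice with more Col1a2 than their group mean tended to have more Col3a1 (r = 0.73), most tightly in the STZ mice (0.88) and the 0.1% quercetin mice (0.93).

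Decorin (Dcn) and lumican (Lum) are small leucine-rich proteoglycans that bind collagen fibrils, and decorin also binds TGF-beta. Dcn had intensities of 413, 454 and 521 in STZ mice, 354, 468 and 514 at 0.1% and 347, 397 and 438 at 0.5% quercetin, against 256, 364 and 393 in controls. All 6 STZ mice lay above all 6 controls, a separation that 1.96% of all genes showed. The STZ minus control difference of Dcn was 0.41 (SE 0.10), with a 95% interval of 0.20 to 0.62 and an adjusted p of 0.0219. The order of the group means was STZ, 0.1% quercetin, 0.5% quercetin and control, and the steps between neighbours in that order (-0.05 and -0.17 between the STZ groups, and 0.20 for 0.5% quercetin minus control) did not pass.

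The call of Dcn was near the threshold. Its adjusted p was 0.0674 without control replicate 3, the lowest control at 256, and 0.0578 and 0.0654 without STZ replicates 2 and 6, the highest STZ mice at 521 and 519. It was 0.115 on the values as deposited and 0.0831 after median scaling, and with the Gapdh 3' minus 5' difference as a covariate the difference was 0.33 (adjusted p = 0.453). The summed intensity of 10 macrophage markers also separated the groups, at 1540.1 to 1971 in STZ mice against 1155 to 1481 in controls, and its part in the result was not tested.

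Lum had intensities of 55.2, 62.5 and 79.8 in STZ mice, 53.8, 62.7 and 91.4 at 0.1% and 51.0, 74.5 and 101 at 0.5% quercetin, against 60.2, 64.6 and 105 in controls. The ranges overlapped in all 4 groups, although 3 STZ mice lay below the lowest control. Lum had a difference of -0.09 (SE 0.14) and an adjusted p of 0.798 between STZ and control.

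Acta2 encodes smooth muscle actin, which stellate cells make once activated and which arterial smooth muscle makes at all times. Its probe set carries the suffix of sets that can also read related transcripts, so signal from other actin genes was not separable. Acta2 had 49.5, 67.9 and 99.6 in STZ mice, 45.2, 52.7 and 70.2 at 0.1% and 52.9, 68.3 and 119 at 0.5% quercetin, against 38.9, 59.9 and 78.5 in controls. The 2 brightest mice, at 119 in the 0.5% quercetin group and 99.6 in the STZ group, were followed by a 0.5% quercetin mouse at 85.4, and the ranges overlapped. The STZ minus control difference was 0.17 (SE 0.15) with an adjusted p of 0.630. Des encodes desmin, the intermediate filament protein by which rodent stellate cells are usually stained. It had 6.55, 10.5 and 17.0 in STZ mice, 1.22, 13.5 and 21.6 at 0.1% and 5.21, 8.13 and 13.5 at 0.5% quercetin, against 6.16, 7.43 and 18.3 in controls. The scatter between mice of a group was wide, up to a coefficient of variation of 63.2% at 0.1% quercetin, and Des had an STZ minus control difference of 0.11 (SE 0.15) and an adjusted p of 0.788.

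Lrat encodes lecithin retinol acyltransferase, the enzyme that esterifies retinol for storage and, in liver, a marker of stellate cells. It had 24.7, 36.7 and 46.4 in STZ mice, 14.3, 20.9 and 30.6 at 0.1% and 16.3, 30.2 and 36.9 at 0.5% quercetin, against 25.5, 31.0 and 32.7 in controls. The 6 controls lay within a narrow band (coefficient of variation 9.89%), 4 STZ mice lay above it and 1 below, and 4 of the 0.1% quercetin mice lay below it. The STZ minus control difference was 0.19 (SE 0.13), with an adjusted p of 0.473.

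Timp1 encodes an inhibitor of matrix metalloproteinases that activated stellate cells secrete. Its probe set was the dimmest of the 10, with 0.309, 1.40 and 9.98 in STZ mice, 3.06, 5.98 and 11.7 at 0.1% and 0.328, 5.61 and 8.67 at 0.5% quercetin, against 0.388, 3.94 and 5.58 in controls. These values lie below the constant of 16 that was added before the log, so the difference of -0.02 (SE 0.13) between STZ and control (adjusted p = 0.958) says little about the ratio of levels. Tgfb1 encodes the TGF-beta that drives stellate cell activation and is made by several liver cell types. It had 17.6, 21.1 and 29.6 in STZ mice, 14.5, 19.7 and 30.9 at 0.1% and 12.6, 16 and 23.7 at 0.5% quercetin, against 9.06, 12.2 and 25.0 in controls. Only 2 of the 6 STZ mice exceeded the highest control, while 4 of the 6 controls lay below every STZ mouse. The difference was 0.33 (SE 0.12) with a 95% interval of 0.08 to 0.58 and an adjusted p of 0.140. At an unadjusted limma p under 0.05, which 16.7% of all genes had in STZ against control, stood 3 of the 10 genes (Dcn, Col1a2 and Tgfb1), each higher in STZ mice.

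Of the 20 probe sets, 16 lay above the filter, and 6 genes had another probe set to set beside the brightest. For Col1a2 the brightest probe set (1450857_a_at) gave an STZ minus control difference of 0.36, and the other (1423110_at) gave -0.02 (SE 0.14). Likewise Tgfb1 gave 0.33 with 1420653_at and -0.07 (SE 0.10) with 1445360_at, and Des gave 0.11 and -0.09. Thus for 3 genes the 2 estimates had opposite signs, but each of the dimmer sets lay within 1 SE of 0 (SE 0.13 for Des). The mean intensities of these dimmer sets were 13.0 for Col1a2, 6.64 for Tgfb1 and 4.27 for Des, below the added constant of 16. For Lrat (0.19 and 0.15), Col1a1 (0.07 and 0.10) and Col3a1 (-0.02 and -0.08) the signs were the same. Dcn had only 1 probe set above the filter (1449368_at), which was still called when 23080 probe sets were tested separately (adjusted p = 0.0283). The deviations of a gene's 2 probe sets from their group means had a permutation p under 0.05, adjusted over 10 relations, for Col3a1 (r = 0.47, adjusted p = 0.0469; rho = 0.49, adjusted p = 0.0546) and for no other of the 6 genes, with r from -0.40 for Des to 0.34 for Col1a2. The link between Col1a2 and Col3a1 was seen with the other Col1a2 probe set too (r = 0.60, adjusted permutation p = 0.003, against the brightest Col3a1 set) but not with the dimmer set of both genes (r = 0.29, adjusted permutation p = 0.344). The use of the other probe sets was chosen after the data had been seen.

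**Figure D3:**
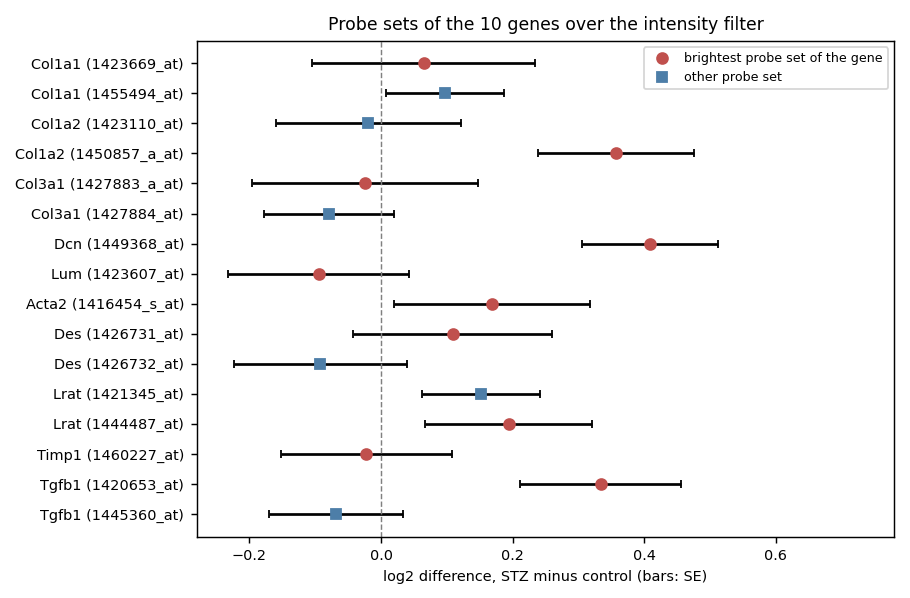
Log2 difference, STZ minus control, with its SE (horizontal) for the 16 probe sets of the 10 genes above the filter (vertical); circles are each gene's brightest probe set and squares the other. The 2 probe sets of Col1a2 (0.36 and -0.02) and of Tgfb1 (0.33 and -0.07) lie apart, while those of Lrat (0.19 and 0.15) lie together.

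Quercetin was then compared with STZ alone, which asks what the flavonol added in diabetic mice. At 0.1% quercetin none of the 10 genes was called, and neither was any of the 13117 genes (0% called by limma, with 687 genes or 5.24% at an unadjusted p under 0.05). Among the 10, Lrat had the clearest difference, with 4 of 6 mice at 0.1% quercetin below every STZ mouse. Lrat differed by -0.48 (SE 0.13), a fold of 0.718 with a 95% interval of -0.74 to -0.22 in log2 units. Its unadjusted p was 0.000840, which ranked 11 among all genes, and its adjusted p was 0.871. The other Lrat probe set, dim with a mean intensity of 5.67, gave -0.19 (SE 0.09, adjusted p = 0.968). The deviations of the 2 Lrat sets did not go together over the 24 mice (r = -0.09, adjusted permutation p = 0.704). Of the other members, Col1a1 differed by 0.23, Acta2 by -0.22 and Timp1 by 0.21, and Col1a2, Col3a1, Dcn, Des, Lum and Tgfb1 by less than 0.09 in size.

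At 0.5% quercetin against STZ alone, again none of the 10 genes and none of the 13117 was called (0% by limma, with 985 genes or 7.51% at an unadjusted p under 0.05). Dcn differed by -0.21 (SE 0.10) (95% interval -0.42 to -0.00, unadjusted p 0.0464, adjusted p 0.648), and 4 of the 6 mice at 0.5% lay below every STZ mouse. Lrat differed by -0.27 (SE 0.13) (unadjusted p 0.0413, adjusted p 0.634) and Tgfb1 by -0.23 (SE 0.12) (adjusted p 0.696). The collagens Col1a1 and Col3a1 had -0.01 and 0.04, and Col1a2 had -0.19 with a 95% interval of -0.43 to 0.05. Without replicates 5 and 6 of the 0.5% group, which stood apart, the differences were -0.17 for Dcn, -0.27 for Lrat and -0.15 for Tgfb1, all at an adjusted p of 0.998. Col1a1 then had 0.17 and Acta2 0.24, against -0.01 and 0.11 with all arrays, and neither passed.

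**Figure D4:**
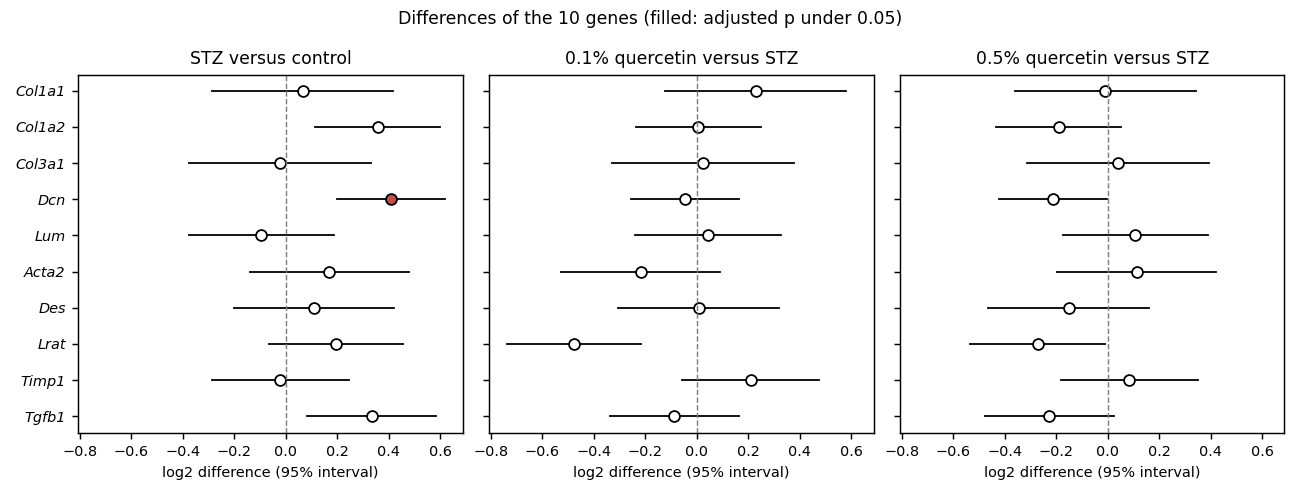
Log2 difference with its 95% interval (horizontal) for each of the 10 genes (vertical) in STZ against control, 0.1% quercetin against STZ and 0.5% quercetin against STZ; a filled point has an adjusted p under 0.05. Dcn in STZ against control (0.41) is the only filled point, and in the quercetin panels the intervals of Lrat at both doses and of Dcn at 0.5% lie below 0 without passing the adjustment.

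Between the doses, 0.5% minus 0.1% quercetin, no gene was called (0% by limma, with 1094 genes or 8.34% at an unadjusted p under 0.05). Acta2 had the most distinct difference of the 10, 0.33 (SE 0.15) (unadjusted p 0.0360, adjusted p 0.555), with 3 of the 6 mice at 0.5% above every mouse at 0.1%. A linear trend over 0, 0.1 and 0.5% quercetin in the 18 STZ mice called no gene either (0%, with 1067 genes or 8.13% at an unadjusted p under 0.05). The slopes, in log2 units per 1% of the diet, were -0.42 for Dcn (SE 0.18, adjusted p = 0.582), -0.42 for Tgfb1 (SE 0.21, adjusted p = 0.622), -0.41 for Col1a2 (SE 0.23, adjusted p = 0.647) and 0.40 for Acta2 (SE 0.30, adjusted p = 0.767). Without replicates 5 and 6 of the 0.5% group the slopes were 0.64 for Acta2 and -0.27 for Tgfb1, each at an adjusted p of 1.00. A difference between doses was therefore not detectable for any of the 10 genes with 6 mice per group.

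Both quercetin groups were also set against the untreated controls, which are the same 6 mice as in the STZ comparison, so these values are not independent of it. At 0.1% quercetin against control Dcn was called higher, with 0.36 (SE 0.10) and an adjusted p of 0.0340, and it was the only member called, where 2.94% of all genes were called higher and 2.64% lower. Those shares are 385 and 346 genes, which became 127 and 90 on the values as deposited, 222 and 539 after median scaling, 3 and 1 with the Gapdh covariate, and 244 and 196 or 249 and 211 without 0.1% quercetin replicate 5 or 6. Col1a2 had 0.36 (SE 0.12) with an adjusted p of 0.0702, and 5 of its 6 mice lay above every control. Lrat had -0.28 (SE 0.13), with 4 of 6 mice below every control and an adjusted p of 0.216. The Dcn call was lost when control replicate 3 or 6 or 0.1% quercetin replicate 1, 2, 4 or 6 was left out, with adjusted p values from 0.0604 to 0.0996, and with the Gapdh covariate it was 0.359. At 0.5% quercetin against control no member was called, where 0.0534% of all genes were called higher and 0.0762% lower. That background of 7 and 10 genes rested on the 2 arrays that stood apart: it was 233 and 199 without replicates 5 and 6 of the 0.5% group, 75 and 62 without replicate 5 alone and 88 and 62 without replicate 6 alone. Without any 1 of the other 22 arrays it was 0 to 11 and 1 to 13, and after median scaling 37 and 649. Dcn had 0.20 (SE 0.10) there, with an adjusted p of 0.444, and without replicates 5 and 6 of that group 0.24 with an adjusted p of 0.301. Replicates 5 and 6 were singled out because they lay beside the controls in these same data, so leaving them out tends to widen differences from control.

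The rest of the matrix was read from lists of related genes. Of 11 fibrillar and associated collagens, the 3 members included, 0 were called in STZ against control, and their median difference was 0.07. Basement membrane genes (0 of 13, median 0.08), elastic fibre genes and matrix glycoproteins (0 of 12, median 0.04) and enzymes that fold, cleave and crosslink collagen (0 of 10, median 0.01) had no call either. At an unadjusted limma p under 0.05 stood the type IV collagen gene Col4a1 (0.30) and the elastin gene Eln (0.23), both chosen after their values were seen. Among 8 small leucine-rich proteoglycans, Dcn was higher and podocan (Podn) lower in STZ mice. Podn had 2.59, 9.29 and 13.5 in STZ mice, against 11.9, 14.8 and 20.7 in controls, and differed by -0.33 (SE 0.09) (adjusted p = 0.0438), with 5 of 6 STZ mice below every control. Its call held without only 12 of the 24 arrays in turn, and at intensities near the added constant. The Podn call was lost on the values as deposited (adjusted p = 0.512) and after median scaling (adjusted p = 0.0653).

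Mmp14, a membrane-bound collagenase that also activates other matrix proteases, was the only call among 11 proteases and their inhibitors. It had 51.3, 56.4 and 63.0 in STZ mice, against 35.9, 39.9 and 41.2 in controls. No STZ mouse overlapped a control, and the difference was 0.39 (SE 0.09) with an adjusted p of 0.0175, which was 0.0552 without STZ replicate 6. The Mmp14 call was also lost on the values as deposited (adjusted p = 0.103) and after median scaling (adjusted p = 0.0521). Of 9 TGF-beta target genes, 4 of which are members, the only call was Ccn2, the gene of connective tissue growth factor. Ccn2 had 29.5, 38.3 and 40.6 in STZ mice, against 11, 15.7 and 31.5 in controls, so that 5 of 6 STZ mice exceeded every control. Its difference was 0.67 (SE 0.15) with an adjusted p of 0.0114, and it was called without any 1 of the 24 arrays. The 18 ligands, receptors and signal carriers of TGF-beta had no call in STZ against control, and their median difference was 0.01, or 0.00 after median scaling. The type II receptor gene Tgfbr2 had 0.59 (SE 0.17) there (adjusted p = 0.0539) and was called at 0.1% quercetin against control with 0.70 (SE 0.17) (adjusted p = 0.0149). The Tgfbr2 call at 0.1% quercetin was lost on the values as deposited (adjusted p = 0.0591) and with the Gapdh covariate (0.59, adjusted p = 0.264).

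Of the 15 stellate cell markers tested, 2 were called higher in STZ mice, Dcn and the intermediate filament gene vimentin (Vim), with a list median of 0.02. Vim had 77.5, 115 and 127 in STZ mice, against 60.2, 68.5 and 90.0 in controls, and differed by 0.50 (SE 0.14) (adjusted p = 0.0396), with 4 of 6 STZ mice above every control. Many other liver cells make vimentin, and its call held without 15 of the 24 arrays in turn. The Vim call was lost on the values as deposited (adjusted p = 0.153) and after median scaling (adjusted p = 0.0840). Reln, a secreted glycoprotein that stellate cells make in liver, had 162, 186 and 214 in STZ mice, against 217, 231 and 271 in controls. All 6 STZ mice lay below all 6 controls, a separation that 2.23% of all genes showed, yet its difference of -0.33 (SE 0.10) missed the threshold (adjusted p = 0.0733). At 0.1% quercetin against control Reln was called lower, with -0.39 (adjusted p = 0.0202). That call was lost on the values as deposited (adjusted p = 0.440), with the mean of its probe sets (-0.24, adjusted p = 0.0979), with the Gapdh covariate (adjusted p = 0.231), and without control replicate 6 (adjusted p = 0.0538) or 0.1% quercetin replicate 5 (adjusted p = 0.0691). The summed intensity of the 15 markers was 1264 to 1621 in STZ mice against 1216 to 1408 in controls, and the ranges overlapped. None of 17 genes of retinoid handling (median 0.00), of 11 smooth muscle contractile genes (median 0.05), of 6 platelet-derived growth factor genes (median 0.09) or of 5 portal fibroblast markers (median 0.17) was called.

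Markers of other liver cells were read beside the members. Macrophage markers were above 0 in all 10 genes tested, with a median of 0.30, and 3 were called higher in STZ mice: C1qa and C1qb, subunits of complement C1q, and Cd5l, a protein secreted by liver macrophages. C1qb had 169.7, 202 and 224 in STZ mice, against 107, 119 and 163 in controls, and C1qb differed by 0.62 (SE 0.15) (adjusted p = 0.0164). C1qa differed by 0.48 (adjusted p = 0.0475) and Cd5l by 0.58 (adjusted p = 0.0202), and C1qa was called without only 7 of the 24 arrays in turn. On the values as deposited none of C1qa, C1qb and Cd5l was called (adjusted p = 0.175, 0.0635 and 0.0907). After median scaling C1qa and Cd5l were not called (adjusted p = 0.126 and 0.0604). Of 13 sinusoidal endothelial markers, the hyaluronan receptor Lyve1 was the only call. Lyve1 had 39.7, 48.3 and 59.9 in STZ mice, against 11.3, 16.7 and 21.8 in controls, and differed by 1.02 (SE 0.18) (adjusted p = 0.00181), while the summed intensity of the 13 markers overlapped, at 1038 to 1243 in STZ mice against 1027 to 1194 in controls. No hepatocyte (9 tested), bile duct (3), platelet (4), lymphocyte (4) or mesothelial (4) marker was called in STZ against control. Every call named for STZ against control, Dcn included, was lost with the Gapdh 3' minus 5' difference as a covariate, under which 4 genes were called higher and 2 lower of 13117. That covariate itself differed between STZ mice and controls, so RNA quality and STZ treatment cannot be told apart there. In the comparisons of quercetin with STZ alone, of the doses and of 0.5% quercetin with control, no gene of these lists was called. After median scaling, genes of 4 lists were called lower at 0.5% quercetin against control. Under that scaling 649 of all 13124 genes were called lower and 37 higher, and the median difference of all genes was -0.09, so these calls are not particular to the lists. The macrophage sums at 0.5% quercetin were 1701 to 1808 in replicates 1 to 4, above every control, and 1165 and 1175 in replicates 5 and 6. Those 2 arrays were singled out because they lay beside the controls in these same data, so leaving them out tends to widen the difference from control. Without them, 233 of all 13117 genes were called higher and 199 lower at 0.5% quercetin against control. Of 181 genes of the lists, 9 were called higher and 3 lower. They included C1qb (0.60, adjusted p = 0.000642), Lyve1 (0.85, adjusted p = 0.000150), Ccn2 (0.66, adjusted p = 0.0256), Reln (-0.40, adjusted p = 0.0326) and Pf4 (-0.52, adjusted p = 0.000570), named after their values were seen. In STZ against control, 344 of all 13117 genes were then called higher and 307 lower, against 266 and 222 with all arrays. Of the 181 genes of the lists, 12 were called higher and 3 lower there, with Reln (adjusted p = 0.0417), Tgfbr2 (adjusted p = 0.0328) and Pf4 (-0.33, adjusted p = 0.0108) among them.

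**Figure D5:**
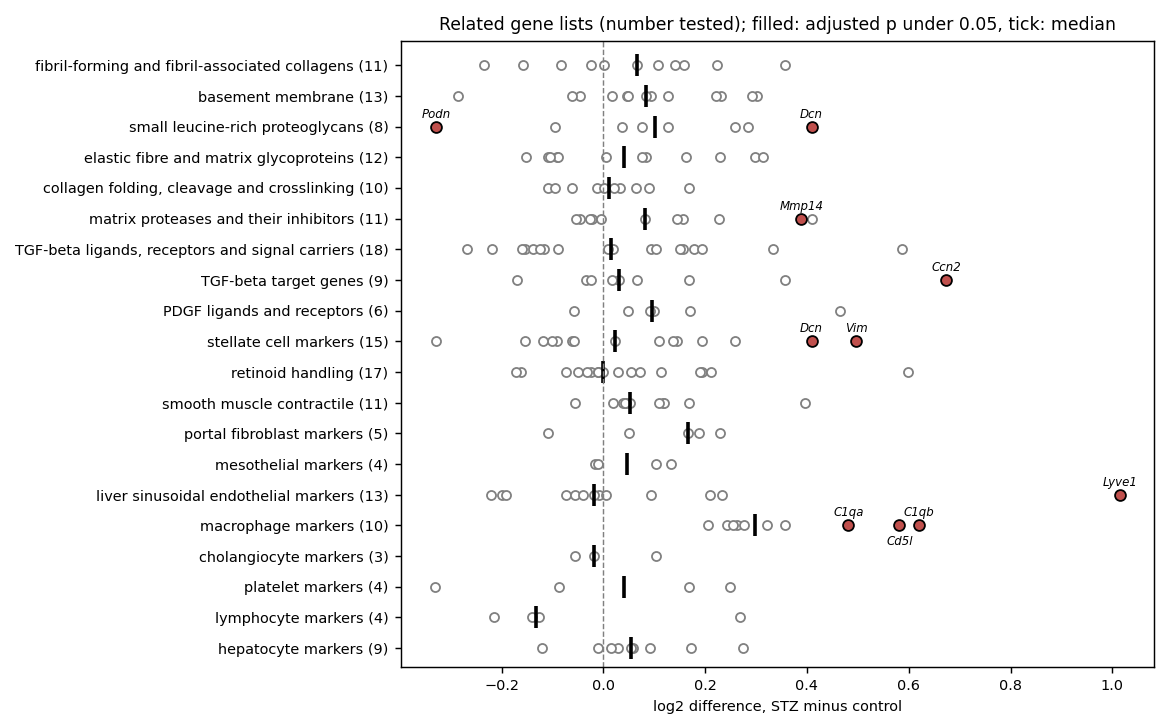
Log2 difference, STZ minus control (horizontal), of each tested gene of 20 related lists (vertical, with the number tested); filled points have an adjusted p under 0.05 and are named, open points do not, and ticks mark medians. Most lists lie around 0 and hold no call or 1 or 2 (Dcn and Podn, Mmp14, Ccn2, Dcn and Vim, and Lyve1), and the macrophage list lies above 0 in all of its 10 genes.

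At 0.1% quercetin against control, the same lists gave further calls by limma. C1qa (0.46), C1qb (0.64), Cd5l (0.66) and Cd68 (0.46) of the macrophage list, Lyve1 (1.02), Mmp14 (0.52), Ccn2 (0.72) and the leukocyte antigen gene Ptprc (0.38) were higher. The platelet chemokine gene Pf4 (-0.42) was lower. All 9 of these calls were lost with the Gapdh 3' minus 5' difference as a covariate, with adjusted p values from 0.0946 for Mmp14 to 0.540 for C1qa. C1qa was called without only 6 of the 24 arrays in turn, and Mmp14 was not called with the mean of its probe sets. On the values as deposited C1qa, C1qb, Cd5l, Cd68, Ptprc and Pf4 were not called, with adjusted p values from 0.0713 for Cd5l to 0.305 for C1qa. After median scaling C1qa and Ptprc were not called (adjusted p = 0.146 and 0.0525). Podn, lower in STZ mice, had -0.03 there (adjusted p = 0.891), and its 0.1% quercetin minus STZ difference of 0.30 (SE 0.09) had an adjusted p of 0.871.

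The genes most like a member were sought by the Pearson r of deviations from group means over the 24 mice, among the 13117 genes and outside the 10, and are given as a description with no test. For Col3a1 they were Anxa2 (0.79), Tsc22d1 (0.77) and Col6a3 (0.74), the last a chain of type VI collagen. For Col1a2 they were 1810021B22Rik (0.73), Adcy5 (0.70) and again Tsc22d1 (0.68). For Lrat they were Colec10 (0.73), Rgs2 (0.70) and Nedd4 (0.68), and for Dcn Fsip1 (0.69), Polr1a (0.69) and Galns (0.68). For Col1a1 they were Thoc2 (0.83), C1s1 (0.74) and Smarca4 (0.74), and for Lum Yes1, Nsun3 and Sfrp1 (0.71 each). For Acta2 they were Ift43 (0.80), Airn (0.76) and Ccdc69 (0.71), for Des Fer (0.79), Dkk3 (0.76) and Smkr-ps (0.74), for Timp1 4930449E01Rik (0.68), Bnip2 (0.67) and Fam50b (0.67), and for Tgfb1 Agfg2 (0.78), Prkar1a (0.77) and Tulp3 (0.73).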

How the data were processed

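Total RNA from the liver of each mouse was made into biotin-labelled cRNA and hybridised to an Affymetrix 3' expression array, per the labels' protocols. The authors deposited a table of linear intensities, with a row for each of 45101 probe sets, 64 of them controls. The summary algorithm, any scaling and detection calls are not given in the sources used here. Groups came from the sample titles, which number the mice 1 to 6 within each group.

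Probe sets were named from the platform annotation: 34958 had 1 symbol, 932 several and 9211 none listed, and 34754 matched a RefSeq gene by ID. Intensities were quantile normalized over 24 arrays and transformed to log2(value + 16). Each gene took its probe set with the highest mean, and genes under the 40th percentile of probe set means were dropped, which left 13117 of 18194. The tests came from limma (version 3.58.1, under R 4.3.3), which fitted the 4 group means to all arrays at once (two-sided, Benjamini-Hochberg over all genes, threshold 0.05). The dose trend used the 18 STZ mice. The p-values treat mice of a group as independent, and the number of arrays limits the precision.

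Correlations between members used deviations from group means and 100000 permutations within groups, two-sided (20000 for the alternatives). Promoters came from RefSeq (GRCm38.p6). All 10 members were named, with every called gene of 20 related lists up to 4 per list and direction, and the 3 genes most like each member. The 10 members and the lists were chosen with earlier results of these data known. The fit was tested on simulated data. Alternatives covered scaling, the added constant, the filter, the probe set rule, the arrays in the fit, a replicate block, a Gapdh covariate, robust variances and each array left out. The labels do not say what a replicate number marks, so mice were not paired by it in the main tests. Over 36 pairs of same-numbered mice the correlation of deviations ran from -0.14 to 0.32 (median 0.01). These values cannot settle whether same-numbered mice shared a cage or a handling step.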

Additional observations from a re-analysis of the deposited data

Results flagged for a closer look

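A mouse was looked at again where its gap to the nearest other mouse of its group, as a share of the group's range, exceeded Dixon's 95% critical value for 6 samples (0.625). Of 40 groups (10 genes in 4 groups), 2 had such a mouse, both among the controls, and chance gives about 1 in 20. Control replicate 2 had a Col1a2 intensity of 27.4, with the other controls between 38.9 and 44.8. Control replicate 1 had a Lum intensity of 104.6, with the other controls between 60.2 and 69.7.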

How the results depend on the processing

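The count of members called higher in STZ against control, 1 in the report, was 0 on the values as deposited, after median scaling and with the Gapdh 3' minus 5' difference as a covariate, and ranged from 0 to 2 when arrays were left out in turn. The count for 0.1% quercetin against control, also 1, was 0 under the same 3 alternatives, with a constant of 1 and with only the arrays of both groups in the fit, and ranged from 0 to 1 with arrays left out. The count of members called lower, and the counts in the other comparisons, stayed at 0. The STZ minus control difference of Col3a1 turned from -0.02 to 0.25 (SE 0.20, adjusted p = 0.802) with the Gapdh covariate, and that of Lrat at 0.1% quercetin against STZ ranged from -0.73 with a constant of 1 to -0.23 with a constant of 64, without passing. Of 2473 values for single genes under the alternatives tried for the members, 2454 were counted as kept, 17 no longer passed, 1 newly passed and 1 turned. Those kept include 129 changes of sign, with both values under 1 SE and neither past the threshold. Only Dcn had passed in the main tests, so the other members had no call to lose, and these counts say little about stability. In STZ against control the Dcn call held under 10 of 13 settings and without 21 of 24 arrays in turn. For 0.1% quercetin against control it held under 8 of 13 settings and without 18 of 24 arrays. The cause of these shifts was not tested.

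With the replicate number as a block, Dcn differed by 0.41 in STZ against control (adjusted p = 0.0179) and by 0.36 at 0.1% quercetin against control (adjusted p = 0.0245), and no member's call changed. On the values as deposited, 5 of the 45 pairs of members passed, against 1 after quantile normalization and 0 without 0.5% quercetin replicates 5 and 6. Dim genes, Timp1, Des and Col1a1 above all, limit what 6 mice can show, since the added constant is as large as their signal.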
